A study of Caenorhabditis elegans with 2 samples.

Results

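The genes described are cct-1 to cct-8 of Caenorhabditis elegans, which encode the subunits of the cytosolic chaperonin CCT, also called TRiC. They were taken by symbol from the annotation, and all 8 were found among 19973 protein-coding genes. The family was selected on the signal values and ranks of its MEP-1 peaks in these same lists. The measurement was ChIP-seq of MEP-1, a zinc-finger protein of Mi-2 chromatin complexes, tagged with eGFP, in whole embryos of mixed stage and mixed sex. The strain was OP70, in which the transgene wgIs70 supplies the tagged protein in animals that carry unc-119(ed3). There was 1 group with 2 biological replicates and no second condition, and the labels do not state whether the endogenous mep-1 gene was intact. The labels describe the target both as eGFP-mep-1 and as mep-1. Because of how the members were selected, the values below are a description and carry no test.

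CCT is a pair of stacked rings in which each of 8 related subunits holds a fixed place, and it folds newly made proteins in a closed chamber with the energy of ATP. Actin and tubulin are its best known clients, and the chaperone prefoldin hands some of them over. The complex is needed in every cell, and in worm embryos tubulin and actin are used heavily for division and cell shape. MEP-1 acts with the chromatin remodeller LET-418 and is best known as a repressor of germline genes in the soma.

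The data are lists of regions on the ce11 build, each with a summit and a signal value that the peak caller assigned. The set that passed the irreproducible discovery rate (IDR) procedure holds 2404 peaks with signal values from 34.2 to 357. The procedure compares how regions rank across lists, but a place in the set does not by itself show a matching region in both replicates. Of the genes with a promoter IDR peak, 86.2% had a summit within 100 bp in both. At the cct-4 peak the nearest replicate 2 summit is 9585 bp away. Longer candidate lists that include background hold 25216 regions in replicate 1, and 30000 each in replicate 2 and the pooled reads. For each member the IDR peak has the same signal value and rank as its region in the pooled list, whereas each replicate has a signal scale of its own. Across replicates a rank within a list (1 is the strongest) is therefore the value to compare. None of the lists gives read numbers, so depth is unknown. Per the file descriptions, a further file beside the ChIP alignments went into the lists of replicate 1 and of the pooled reads. For replicate 2 none is named, and what the further file holds is not stated. The 5′ end of mep-1 itself lies in a stretch of at least 58.3 kb without a summit in each list, so they carry no value by which to check the tagged gene.

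The DNA under the promoter peaks of these genes is shown first, because the positions and short motifs described below can be read from it. Each sequence is 151 bases centred on the summit of the strongest promoter IDR peak, on the strand of the CCT gene, read from the RefSeq WBcel235 genome, the same assembly as ce11. The windows are chrII:8185129-8185279 (cct-1, plus strand), chrII:8927370-8927520 (cct-2, plus), chrII:8283358-8283508 (cct-4, plus), chrIII:4508488-4508638 (cct-5, minus), chrIII:5855926-5856076 (cct-6, minus), chrV:1871878-1872028 (cct-7, plus) and chrIV:1094296-1094446 (cct-8, minus). Capitals mark matches on either strand to GGGTCTC and to GAANNTTC, a pair of inverted GAA triplets of the kind that heat shock elements are built from. GGGTCTC was put on the motif list as a heat shock associated sequence. The published letters of that sequence may differ, so GGGTCTC is read here as a run of letters only.
cct-1: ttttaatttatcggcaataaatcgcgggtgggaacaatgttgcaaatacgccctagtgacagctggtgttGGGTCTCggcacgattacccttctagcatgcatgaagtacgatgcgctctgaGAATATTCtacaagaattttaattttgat
cct-2: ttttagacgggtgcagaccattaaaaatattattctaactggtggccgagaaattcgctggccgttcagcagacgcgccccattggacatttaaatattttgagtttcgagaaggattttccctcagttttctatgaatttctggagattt
cct-4: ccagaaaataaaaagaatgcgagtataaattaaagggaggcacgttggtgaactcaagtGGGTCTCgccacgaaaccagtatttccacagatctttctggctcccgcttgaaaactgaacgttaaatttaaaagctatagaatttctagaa
cct-5: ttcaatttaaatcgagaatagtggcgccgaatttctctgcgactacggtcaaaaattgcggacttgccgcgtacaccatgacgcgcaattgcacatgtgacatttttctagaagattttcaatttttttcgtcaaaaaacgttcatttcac
cct-6: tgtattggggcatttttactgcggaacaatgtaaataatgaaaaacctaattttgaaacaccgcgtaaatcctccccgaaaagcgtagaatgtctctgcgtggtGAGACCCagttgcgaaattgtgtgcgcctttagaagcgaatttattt
cct-7: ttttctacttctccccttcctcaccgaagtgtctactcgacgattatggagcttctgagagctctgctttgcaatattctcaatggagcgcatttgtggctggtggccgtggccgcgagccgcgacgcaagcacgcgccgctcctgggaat
cct-8: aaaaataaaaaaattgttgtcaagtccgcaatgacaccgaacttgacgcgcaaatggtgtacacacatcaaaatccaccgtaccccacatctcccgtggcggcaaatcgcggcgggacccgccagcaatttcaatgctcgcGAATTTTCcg

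A MEP-1 peak of the IDR set lay in the promoter of 7 of the 8 CCT genes, and cct-3 was the exception. A promoter was taken as the 1000 bp before the annotated 5′ end and the 200 bp after it, and 11.4% of all protein-coding genes had such a peak. With the whole stretch from 2 kb upstream to the 3′ end the count was again 7 of 8, beside 16.1% of all protein-coding genes. The members' strongest promoter peaks had a median signal value of 95.4 (lowest 40.3, highest 152), and the 2275 genes with a promoter peak had a median of 57.7 with quartiles of 43.7 and 81.2. By their IDR signal values the 7 peaks fell into a strong group of 5 and a weak pair, cct-2 and cct-4. All 5 of the strong group lay above the upper quartile of genes with a promoter peak. Replicate 1 did not show this split. There cct-6 (13.7) and cct-7 (13.6) lay close to cct-2 (12.2) and cct-4 (11.6), below cct-1 (23.9), cct-5 (25.1) and cct-8 (28.3).

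The strongest peak was at cct-1, the alpha subunit gene (WBGene00000377, chromosome II, 8185443 to 8187601, plus strand). It spanned 8185135 to 8185290 with a signal value of 152 and rank 54 of the IDR set, and its summit lay 239 bp upstream of the 5′ end. In replicate 1 the summit ranked 235 with a signal value of 23.9, and in replicate 2 it ranked 53 with 123. The replicate summits lay within 5 bp of the IDR summit, and no other summit of any list fell from 2 kb upstream to the 3′ end of cct-1. This gene therefore had 1 region in each list and the same position in all of them.

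The peak at cct-7, the eta subunit gene (WBGene00020391, chromosome V, 1872246 to 1875505, plus strand), came next. It spanned 1871896 to 1872034, ranked 74 in the IDR set with a signal value of 141, and had its summit 293 bp upstream. Its rank was 47 in replicate 2, the best of any member there, with a signal value of 129. In replicate 1 it was 921 with 13.6, and the summit lay 55 bp from that of the IDR peak. The peaks of cct-1 and cct-7, 156 and 139 bp wide, were the 2 of 7 below the usual width of 336 bp, beside 13.8% of genes with a promoter peak.

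The peaks of cct-8, cct-6 and cct-5 were of similar signal value in the IDR set. The theta subunit gene cct-8 (WBGene00021934, chromosome IV, 1087108 to 1093920, minus strand) had a value of 98.6 and rank 244, with ranks of 131 in replicate 1 and 370 in replicate 2. The zeta subunit gene cct-6 (WBGene00000381, chromosome III, 5853530 to 5855687, minus strand) had 95.4 and rank 275, with ranks of 901 and 228. The epsilon subunit gene cct-5 (WBGene00000380, chromosome III, 4499188 to 4508114, minus strand) had 88.1 and rank 346, with ranks of 198 and 491. So cct-8 and cct-5 stood higher in replicate 1, and cct-6 stood higher in replicate 2. The replicates thus order these genes differently.

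The weak pair lay further down the IDR set, at 71.6% (cct-4) and 78.2% (cct-2) of the set counted from the strongest peak. The delta subunit gene cct-4 (WBGene00000379, chromosome II, 8283667 to 8285711, plus strand) had a peak of signal value 42.5 and rank 1721, with its summit 234 bp upstream. The beta subunit gene cct-2 (WBGene00000378, chromosome II, 8927741 to 8929815, plus strand) had a value of 40.3 and rank 1880, with its summit 296 bp upstream. In replicate 1 these summits ranked 1216 (cct-4) and 1111 (cct-2), with signal values of 11.6 and 12.2. In replicate 2 the cct-2 summit ranked 2488 with 27.5, and no region of the list matched the cct-4 summit. The nearest replicate 2 summit to that of cct-4 was 9585 bp away. Replicate 1 also had a further promoter summit at cct-4, 45 bp upstream and nearest to cct-4 itself, with a signal value of 8.04 and rank 2452.

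The stretch around cct-4 without a replicate 2 summit was long, spanning 65.6 kb from 8227381 to 8293018 on chromosome II. It held 11 summits of replicate 1, 3 of the pooled list and 1 IDR summit, which is that of cct-4. Of 29994 gaps between neighbouring summits in the replicate 2 list, 28 were at least this long, against 9 of 25209 in the list of replicate 1. The cct-4 peak thus rests on the pooled reads and on replicate 1 as these lists stand, and why replicate 2 has no region there was not tested. Among the members' promoter peaks, 7 of 7 had a replicate 1 summit within 100 bp, 6 of 7 a replicate 2 summit and 6 of 7 both. The shares over all genes with a promoter peak were 87.5%, 98.5% and 86.2%.

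**Figure D1:**
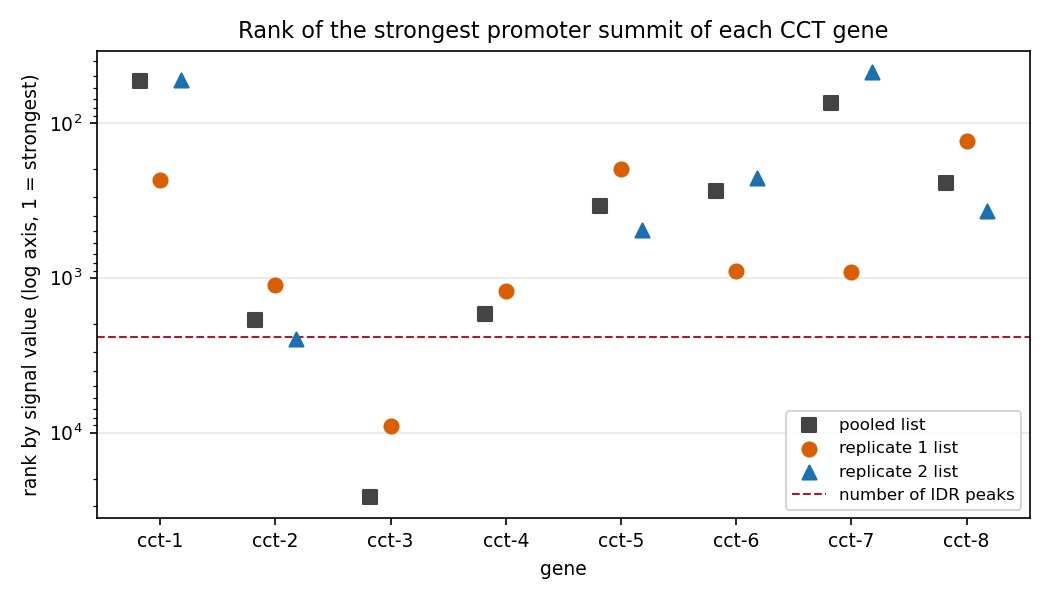
The rank by signal value of the strongest promoter summit of each CCT gene (log axis, strongest at the top) is plotted for the pooled list, replicate 1 and replicate 2, with a dashed line at the 2404 regions that the IDR set holds. The ranks of cct-7 range from 47 in replicate 2 to 921 in replicate 1, and cct-4 has no point for replicate 2. Both points of cct-3 and the replicate 2 point of cct-2 (rank 2488) lie below the line.

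The gamma subunit gene cct-3 (WBGene00018782, chromosome II, 2233540 to 2243539, plus strand) had weak candidates only. Its pooled promoter summit lay 47 bp upstream with a signal value of 7.31 and rank 25932 of 30000, and 39.2% of all protein-coding genes had a pooled summit in the promoter. Replicate 1 had summits 107 bp upstream (signal value 4.16, rank 9085) and 766 bp upstream (2.64, rank 18517), and replicate 2 had none in the promoter. The nearest IDR summits to its 5′ end were 13441 bp upstream and 108668 bp downstream. In this gene the highest ranked pooled summit was in an intron, 7417 bp downstream, with a signal value of 14.4 and rank 8311. A region too weak to enter a list cannot be told apart from no binding.

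The promoter peaks of the CCT genes lay upstream, at a narrow range of distances from the annotated 5′ end. The 7 summits were between 234 bp (cct-4) and 451 bp (cct-8) upstream, with a median of 296 bp. Over the 2275 genes with a promoter peak the median was 225 bp upstream, with quartiles of 395 and 128 bp. None of the 7 regions reached the 5′ end of its CCT gene. Replicate summits moved by 0 to 56 bp from the IDR summit where they matched.

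Each of these peaks also lay in the promoter of another protein-coding gene, which in every case starts on the opposite strand. This held for 7 of 7 members with a peak, and the share was 56.9% over all genes with a promoter peak. In 6 of the 7 the neighbour's 5′ end was the nearer one, by a small margin at cct-4 (225 against 234 bp). Only cct-2 had the nearest 5′ end to its own peak, against 70.1% of genes with a promoter peak. That share also covers genes whose peak lies in no other promoter, and it was not computed for shared peaks alone. Whether such a peak belongs to the CCT gene, to its neighbour or to both cannot be told apart from these lists. Counting each peak only for its nearest 5′ end leaves 1 member of 8 with a promoter peak.

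The neighbours differ in what they encode. The peak at cct-1 lay 181 bp upstream of mig-5, a Dishevelled protein of Wnt signalling, and that at cct-4 lay 225 bp upstream of nst-1, the worm nucleostemin, a nucleolar GTPase. The peak at cct-6 lay 17 bp upstream of alh-9, an aldehyde dehydrogenase gene, and its region covered the alh-9 5′ end. The peak at cct-5 was 292 bp upstream of F25F2.1, that at cct-7 was 146 bp upstream of T10B5.4, and that at cct-8 was 170 bp upstream of Y55F3AR.2. The cct-2 peak lay far closer to cct-2 than to B0457.2, whose 5′ end is 1190 bp from that of cct-2.

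All 8 CCT genes had a protein-coding neighbour that starts upstream on the other strand, at distances from 331 bp (cct-6) to 1190 bp (cct-2). The distance was 420 bp for cct-1, 439 bp for cct-7, 459 bp for cct-4, 621 bp for cct-8 and 741 bp for cct-5. It was 1070 bp for cct-3, where the neighbour is F54A3.6 and no IDR peak lay between the genes. Thus 6 of 8 had such a start within 1000 bp, beside 17.7% of all protein-coding genes. Of the 3539 genes with such a neighbour, 31.6% had a promoter IDR peak, and of the 16434 without, 7.05% did. These shares are given beside the members as a background and were not tested.

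**Figure D2:**
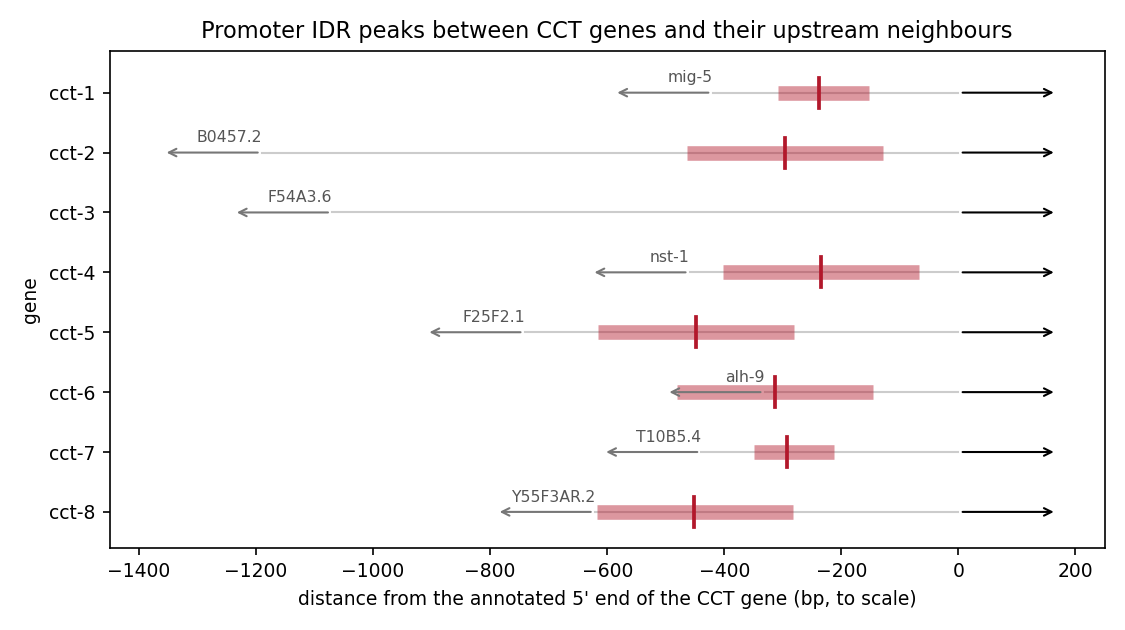
The strongest promoter IDR peak of each CCT gene (red bar, summit as a vertical line) is drawn to scale by distance in bp from the annotated 5′ end of the CCT gene, with black arrows for the CCT gene and grey arrows for the nearest upstream gene on the other strand. The summits lie between 234 and 451 bp upstream, inside the gap between the genes, and the cct-6 peak covers the start of alh-9.

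The annotated 5′ ends of these genes should be read with the sequence around them. Worm messenger RNAs are often trans-spliced, a reaction in which a short leader replaces the start of the transcript at an acceptor site that ends in AG. The 8 sequences below run from 20 bases before the annotated 5′ end to 35 bases from it on, on the strand of the gene. Their places are chrII:8185423-8185477, chrII:8927721-8927775, chrII:2233520-2233574, chrII:8283647-8283701, chrIII:4508080-4508134, chrIII:5855653-5855707, chrV:1872226-1872280 and chrIV:1093886-1093940, in the order of the lines. Capitals mark TTTCAG directly before the 5′ end, where present, and the start codon.
cct-1: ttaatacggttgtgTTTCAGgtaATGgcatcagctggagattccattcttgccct
cct-2: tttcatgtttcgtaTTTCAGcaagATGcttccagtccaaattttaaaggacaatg
cct-3: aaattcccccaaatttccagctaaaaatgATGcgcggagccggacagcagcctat
cct-4: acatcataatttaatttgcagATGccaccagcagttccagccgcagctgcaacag
cct-5: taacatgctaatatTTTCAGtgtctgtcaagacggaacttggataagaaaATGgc
cct-6: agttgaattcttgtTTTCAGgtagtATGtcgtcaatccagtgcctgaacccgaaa
cct-7: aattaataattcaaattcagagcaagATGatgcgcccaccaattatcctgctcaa
cct-8: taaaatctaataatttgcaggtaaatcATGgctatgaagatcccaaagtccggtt

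The letters TTTCAG stood directly before the 5′ end in 4 of 8 genes, cct-1, cct-2, cct-5 and cct-6, and in 12.3% of all protein-coding genes. The letters AG stood there in 7 of 8, against 27.6% of all protein-coding genes. At cct-4 the annotated 5′ end falls on the last base of such an AG. The start codon followed 1 to 30 bases after the 5′ end. Where the 5′ end is a splice acceptor, the distance from a summit to it is not the distance to the start of transcription, which these files do not give.

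Among the short motifs looked for under the peaks, GGGTCTC was present in the summit windows of cct-1, cct-4 and cct-6, on either strand. That is 3 of 7 members, and the share over all 2404 IDR summit windows of 151 bases was 7.03%. It began 5 bases before the summit at cct-1, 16 bases before it at cct-4 and 29 bases after it at cct-6, on the strand opposite to the gene there. In all 3 the base before GGGTCTC was T, and TGGGTCTC, which was searched after this was seen, occurred in 2.79% of the IDR windows. The strong peaks of cct-5, cct-7 and cct-8 had no match, and the weak cct-4 peak had one. Whether signal value differs with a match over all IDR peaks was not tested. In promoters of 300 bases (250 before and 50 from the 5′ end on) GGGTCTC was found at cct-1 and cct-4, in 2 of 8, and in 2.62% of all protein-coding genes.

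The other motifs were in fewer of the 7 member windows than GGGTCTC, though most were in a larger share of all IDR windows. GAANNTTC was in the windows of cct-1 and cct-8, and in 6.16% of all IDR windows. TTTGAA, the CHR element of DREAM targets, was in that of cct-6 (26.7% of all), and TATAAA in that of cct-4 (7.86%). GAGAGA was in none of the 7, where 35.9% of IDR windows hold it, and TTTCAG was also in none (9.94%). In the promoters of 300 bases, GAANNTTC was in 5 of 8 members and 18.5% of all genes, and TTTGAA in 7 of 8 and 62.5%. TTTCAG was in 6 of 8 promoters and 51.7% of all genes, TATAAA in 2 and 37.9%, and GAGAGA in 0 and 21.8%. All were sought on both strands, and no match to one overlapped a match to another except TGGGTCTC, which contains GGGTCTC. A match is a run of letters and does not show that any factor binds it.

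The GC content of the member windows was below the median of all IDR peaks for 5 of the 7. It ran from 39.1% (cct-4) to 41.7% (cct-1) in those 5, and the median over all IDR windows was 45.7% with quartiles of 41.1% and 49.7%. The cct-8 window had 49.7% and the cct-7 window 56.3%. The latter is also the window of the second strongest member peak.

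Within the genes, cct-5 alone among the members had an IDR summit. It lay 5411 bp downstream of the 5′ end, from 4502535 to 4502870 on chromosome III, in intron 2 of 7, with a signal value of 35.1 and rank 2319. The summit was at 5404 bp in replicate 1 (signal value 7.87, rank 2558) and at 5413 bp in replicate 2 (25.1, rank 2785). The next pooled summit below the IDR set in this gene, 2216 bp downstream in the same intron, had a signal value of 33.3 and rank 2497. In replicate 1 this second site stood higher, with 12.4 and rank 1087 at 2274 bp, and in replicate 2 it stood lower, with 21.5 and rank 3459 at 2226 bp. The values 35.1 and 33.3 are the members' nearest on either side of the IDR threshold.

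Intron 2 of cct-5 is long, at 6134 bp of a gene of 8927 bp, and the 7 introns leave 1931 bp of exons. It held 6 pooled summits, 7 of replicate 1 and 7 of replicate 2. The nearest 5′ end to the IDR summit in it belonged to atf-7, a bZIP transcription factor gene that starts 3658 bp away on the same strand. Of the 1986 protein-coding genes at least as long as cct-8, 9.01% had an IDR summit beyond 200 bp downstream of the 5′ end.

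Candidate summits inside the other genes had lower signal values than both of these sites in the pooled list. In the pooled list cct-3 had 5 in the gene, cct-8 had 3, cct-7 had 2, and cct-1, cct-2, cct-4 and cct-6 had 0. The first 3 span 10000, 6813 and 3260 bp, and the 4 with none span 2045 to 2159 bp. The replicate lists did not follow this split: cct-6 had 2 summits in coding sequence in replicate 1 (0.927 per kb, the higher with rank 3712) and none in replicate 2, and cct-2 had 2 in replicate 2 (0.964 per kb) and none in replicate 1. The strongest pooled summit in these genes was at cct-7, 1241 bp downstream in coding sequence, with a signal value of 16.6 and rank 6572, and replicate 2 had a summit 1236 bp downstream with rank 5607. In replicate 1 the nearest was 1421 bp downstream, with rank 18946. Over the 8 genes and the 2 kb upstream of each, 14 of 29 pooled summits lay in introns and 2 in coding sequence. Of these intron summits, cct-5 held 7 and cct-3 held 4, and the counts were not set against the share of sequence in introns.

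**Figure D3:**
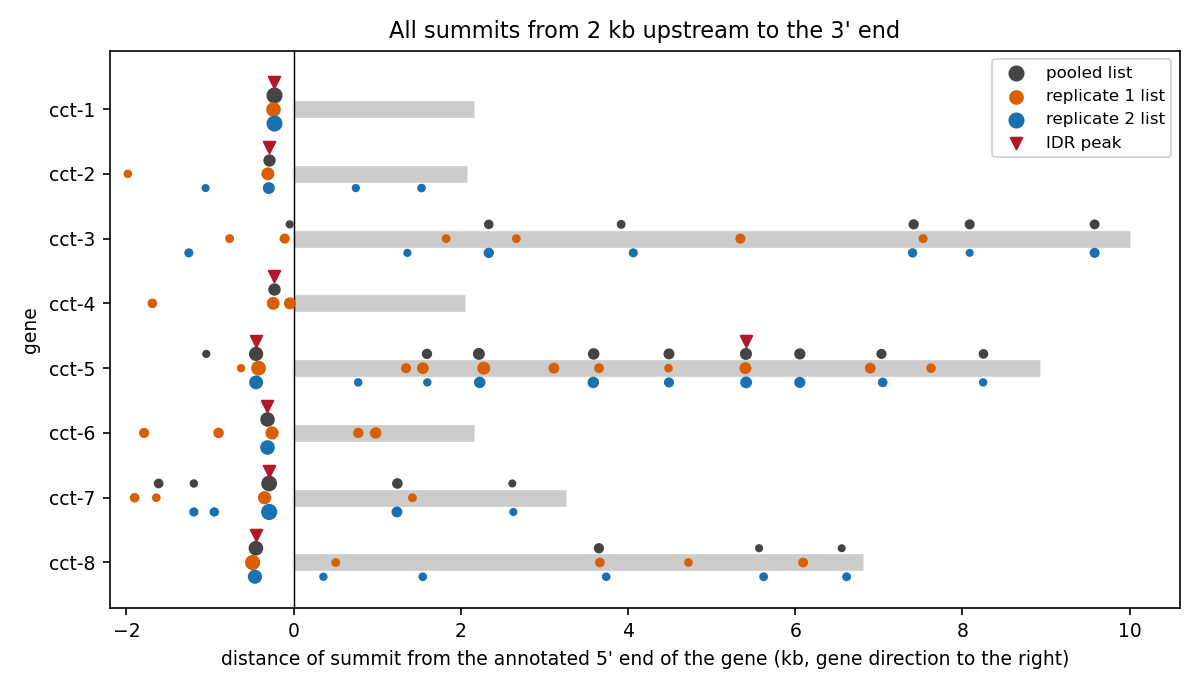
All summits from 2 kb upstream to the 3′ end of each CCT gene are plotted by distance in kb from its annotated 5′ end, for the pooled list and each replicate, with larger points for higher ranks, red triangles for IDR peaks and grey bars for the genes. The upstream summits of 7 genes line up in the lists that hold them, cct-3 has small points only, and intron 2 of cct-5 carries a row of summits with an IDR peak at 5411 bp.

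Promoter peaks were also counted at the genes for cofactors and clients of CCT, beside the 11.4% of all protein-coding genes given above, without a test. Of the 6 prefoldin genes, which encode the chaperone that delivers clients to CCT, 2 had one (33.3%), pfd-1 with a signal value of 82.1 and pfd-6 with 60.1. Of 5 actin genes 1 had one, act-2, with 78.0. Of 16 tubulin genes 4 had one, led by tba-2 (111), tbb-1 (108) and tbg-1 (75.2), the last of which encodes the gamma-tubulin of microtubule nucleation. Of the 5 genes for tubulin folding cofactors 1 had one, tbcd-1 (41.4). The tbb-1 and tbcd-1 peaks had no replicate 1 summit within 100 bp.

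Promoter peaks were also present at the mitochondrial chaperonin gene and at most of the listed genes of the Hsp70 and Hsp90 system. The mitochondrial chaperonin gene hsp-60 had a peak of 142, close in value to that of cct-7, and its summit was 608 bp upstream and nearer to Y22D7AL.10. Of 10 genes of the Hsp70 and Hsp90 system, 7 had a promoter peak, with hsp-1 (219), hsp-110 (210) and dnj-13 (123) the strongest and a median of 118. Of 31 proteasome subunit genes, 23 had one (74.2%), with rpn-3 (210), rpn-9 (106) and pas-4 (105) the strongest and a median of 55.5. The hsp-110 and rpn-3 peak is a single region between these genes. The CCT count of 7 of 8 was not tested against these lists, which are shown side by side. The nearest 5′ end was the gene's own for 18 of 23 proteasome genes with a peak and 5 of 7 of the Hsp70 and Hsp90 system, beside 1 of 7 for CCT. The lists also differ in how many peaks lie in another gene's promoter: 17 of 23, 4 of 7 and 7 of 7 in the same order.

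In the order of strongest promoter peaks, cct-1 stood 75 of 2275, level with mig-5, whose peak is the same region. The genes just above were cox-5B (158), Y39E4B.6 (155), fust-1 (154), eif-3.C (154) and icd-2 (153). Just below mig-5 (152) were rpl-23 (151), swp-1 (151), ints-4 (151) and efl-1 (151). These genes are named for their place in the order alone, with the signal value in brackets.

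**Figure D4:**
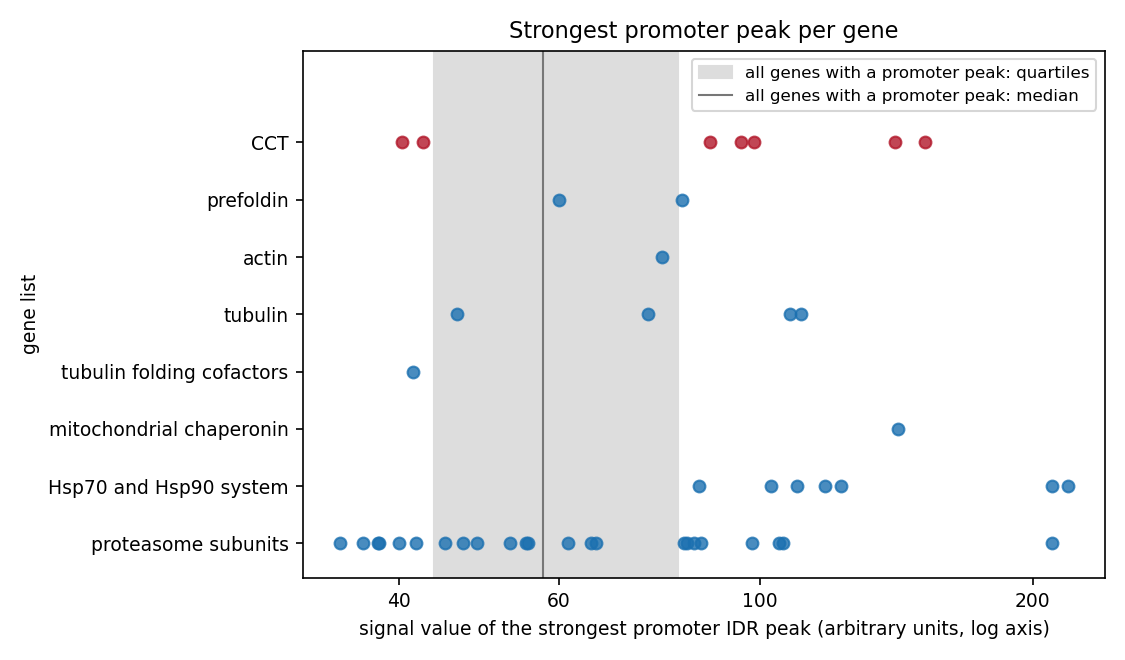
The signal value of the strongest promoter IDR peak (log axis) is plotted for each gene with such a peak, by gene list, over the quartiles (grey band) and median (grey line) of all 2275 genes with a promoter peak. The CCT points form a group of 5 from 88.1 to 152, above the band, and a pair at 40.3 and 42.5, below it.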

How the data were processed

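Per the file descriptions, the authors deposited narrowPeak lists on ce11 for each of 2 replicates, for the pooled reads and for the thresholded IDR set. The deposited signal value of each region is the peak caller's own. Regions were ranked by signal value, as the deposited −log10 q-values stop at a highest value (3.70 in the IDR set) that every IDR peak of the members has. The peak caller, its settings and the aligner were not given in the sources used here. Lists on ce10 were not used, and no coordinate was converted.

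Summits were placed against Ensembl release 115 genes (WBcel235) with Python 3.11.15, pandas 2.3.3 and numpy 2.4.6. Window steps were tested on simulated summits. No p-value was computed: with 1 group, nothing compares conditions, and the members and gene lists were chosen with earlier results of these data known. Genes named are the 8 members, the neighbours of their peaks, the 3 strongest of each other list and the 5 genes above and below the strongest member in order. Of 32 proteasome symbols 31 matched. Figures used matplotlib 3.10.9. Alternatives changed the promoter window, the peak set, the replicate, the match rule and the gene assigned.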

Additional observations from a re-analysis of the deposited data

How the results depend on the processing

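Of the 16 alternatives to the member counts, 15 stayed within 1.5 times the main count. With each peak given only to its nearest 5′ end, the count of members with a promoter peak went from 7 to 1, because all but cct-2 have a neighbour whose 5′ end is nearer. The count was 7 with the narrow and the wide promoter window and with the 5′ end of any transcript, and 5 with the stronger part of the IDR set, where cct-2 and cct-4 drop out. With the strongest regions of a single replicate it ranged from 5 (replicate 2 alone) to 7 (replicate 1 alone), and the same holds for the stretch to the 3′ end. The count matched in both replicates was 6, and 4 with summits within 50 bp or with an overlap of at least 50% of both regions, where cct-7 drops out with cct-6 and with cct-1. Of 14 ranks taken from a single replicate, 5 could not be called unmoved: those of cct-1, cct-6 and cct-7 in replicate 1 moved by more than 1 SD of both replicates' values (cct-7 from 0.247% of the pooled list down to its summit to 3.65%), and cct-3 and cct-4 have no replicate 2 value to give an SD. No paired analysis was possible because there is 1 group. Unknown depth limits every absence, that of cct-3 included.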
